A study of Mus musculus with 12 samples.

Results

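The 34 genes described here encode the enzymes that make and recycle nucleotides: the pyrimidine and purine pathways, thymidylate and deoxynucleotide synthesis, the nucleotide kinases and the main salvage enzymes. They were taken by symbol from an RNA-seq table of 18929 gene symbols in mouse T helper 1 (Th1) cells, and all 34 were found in it. A filter on low values (over 10 normalised counts in at least 3 libraries) was passed by 33 of the 34, Nme2 being the exception. The comparison was of 3 libraries labelled Sdhc cKO (conditional knockout) with 3 wild-type control libraries; Sdhc codes for a membrane subunit of complex II, the succinate dehydrogenase. Both groups came from C57BL/6 mice, were cultured under Th1 conditions for 5 days and were sorted before RNA was taken. The sources used here do not give the driver or timing of the deletion, the age of the animals or whether libraries of a group came from separate animals. P-values therefore reflect only how far these libraries vary. The series concerns mitochondrial metabolism in T cell differentiation and function. It has 12 samples in 5 groups, of which 6 samples in 3 groups are not analysed here.

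Dividing T cells build nucleotides anew. The pyrimidine ring is assembled on its own and then joined to phosphoribosyl pyrophosphate (PRPP), whereas the purine ring is built on PRPP step by step until inosine monophosphate (IMP) is reached. Dhodh, the dihydroorotate dehydrogenase of the inner mitochondrial membrane, passes its electrons to ubiquinone, the same pool that complex II reduces. Ribonucleotide reductase then turns ribonucleotides into the deoxynucleotides used for DNA, and salvage enzymes return free bases and nucleosides to the pool.

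The libraries held 18144933 to 21983821 counted reads. Sdhc itself had 1452, 1562 and 1655 normalised counts in cKO libraries 1, 2 and 3, against 1683, 1603 and 1892 in control libraries 1, 2 and 3 (reads divided by a size factor per library). The groups overlapped, the log2 fold change of Sdhc was -0.15 ± 0.09 (SE), and an exact 2-sided permutation test gave p = 0.2, where 3 against 3 cannot go below 0.1. The transcript level does not check the labels unless the deleted part is known, which the labels do not give. T cell markers summed to 49463 to 58629 normalised counts in cKO libraries and 49459 to 52415 in controls, with Cd4 and Cd3e among them. Markers of other cells, by contrast, summed to 235 to 547 in cKO and 278 to 368 in control libraries for CD8 T cells (2 of 2 genes in the table), 1864 to 2070 and 1624 to 1978 for B cells (5 of 6, nearly all of it Ighm), 334 to 407 and 465 to 516 for NK cells (5 of 5), and 52.4 to 99.4 and 49.0 to 80.6 for myeloid and dendritic cells (8 of 8). The sums of the NK cell list did not overlap, being lower in cKO libraries. The groups overlapped in each of the 3 genes of that list tested (Klrk1, Klrd1 and Eomes). Eomes and Klrk1 gave most of these sums. Ncr1 and Klrb1c were low, with means of 4.14 and 14.8 in cKO against 10.9 and 15.1 in controls. Whether these transcripts came from NK cells was not tested, and neither was the part of NK cells in the values below. In bulk RNA, fewer cells of a type and less RNA per cell cannot be told apart.

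Libraries of a group also differed in sex-linked transcripts. Reads on 4 Y-linked genes summed to 0.207, 193 and 189 RPM in cKO libraries 1, 2 and 3, against 0.048, 131 and 55.1 in controls 1, 2 and 3. Xist, expressed from the inactive X chromosome of female cells, had 7565, 0 and 2.15 normalised counts in cKO libraries 1, 2 and 3, against 9780, 2490 and 6406 in controls 1, 2 and 3. Both libraries numbered 1 thus held Xist and almost no Y-linked reads, cKO 2 and 3 held Y-linked reads and almost no Xist, and controls 2 and 3 held both, so the groups also differ in these transcripts when the libraries numbered 1 are left out. On the first principal component of all tested genes (49.1% of the variance) they lay at -39.9 for cKO 1 and -22.5 for control 1, with the other 4 libraries between 8.75 and 24.2. For the members as a set and for some single members, values with and without the libraries numbered 1 are given below. The other members, and most genes of the other lists, are given with them only. Such a member can still rest on them: the log2 fold change of Ctps was -0.16 with all libraries and -0.06 without cKO 1.

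No nucleotide synthesis gene passed the test between cKO and control libraries, and the differences were small and nearly all of 1 sign. At an adjusted p of 0.05 (limma on log2(normalised count + 1), Benjamini-Hochberg over the 12699 genes tested), 0 of the 33 members were called, where 0% of all tested genes were called, while edgeR called 0 genes and DESeq2 called 2 genes (0.0157%), neither of them a member. The log2 fold change of cKO over control was negative for 31 of 33 members (93.9%), against 54.1% of all tested genes. The median over the members was -0.13, against -0.01 over all tested genes, and single members ran from -0.36 for Umps to 0.06 for Tk2. At an unadjusted p under 0.05, 2 members were lower in cKO (Dut and Guk1), where 1.53% of all genes were, and these were also the 2 members (6.06%) with all cKO values under all control values, where 5.64% of all genes were. In 0 members did all cKO values lie above the controls (4.51% of all genes). The count without overlap is thus near the background.

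The same-numbered libraries gave a related picture, though the labels do not say that they are pairs. In 21 of the 33 members (63.6%) each cKO library was lower than the control library of the same number, against 21.8% of all tested genes, and in 0 members was each cKO library higher (14.6% of all genes). The median difference over the members was -0.25 between the libraries numbered 1, -0.06 between those numbered 2 and -0.12 between those numbered 3, where the medians over all tested genes were -0.03, -0.01 and -0.01. Negative differences were counted for 30, 24 and 32 of the 33 members in the pairs numbered 1, 2 and 3. With the replicate number as a block in limma, 0 members and 0.00787% of all tested genes were called, and 13 members (39.4%) were lower in cKO at an unadjusted p under 0.05, where 8.01% of all genes were. The members are measured in the same libraries and do not count as 33 independent observations.

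**Figure D1:**
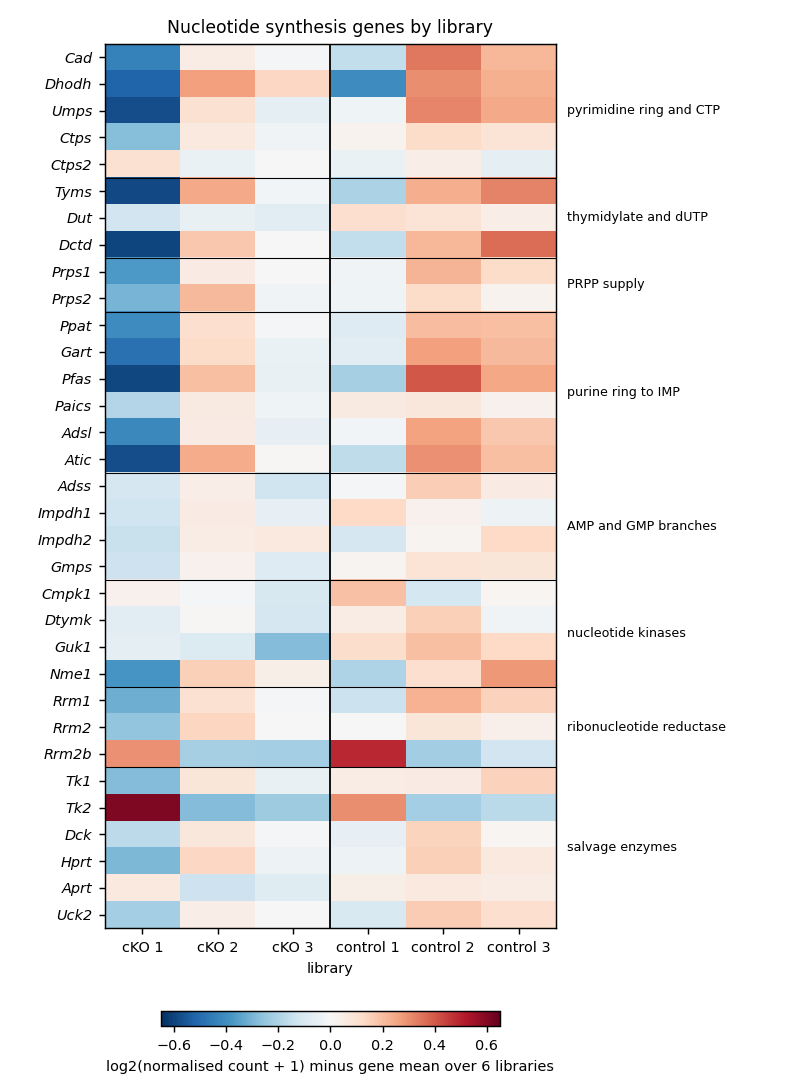
Level of each of the 33 members that passed the filter in each library, as log2(normalised count + 1) minus the mean of that gene over the 6 libraries; rows are grouped by step of the pathway, cKO libraries stand left of controls, and blue is below and red above the mean. cKO 1 is the lowest library for 25 members, and Rrm2b and Tk2 run the other way.

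The pyrimidine pathway opens with Cad, the enzyme that carries the first 3 activities (carbamoyl phosphate synthetase, aspartate transcarbamylase and dihydroorotase) in a single protein. Cad had 2528, 3548 and 3395 normalised counts in cKO libraries 1, 2 and 3, against 3070, 4350 and 3981 in controls 1, 2 and 3. Each cKO library was below the control library of its number, yet the groups overlapped, since control 1 lay under cKO 2 and 3. The log2 fold change of Cad was -0.27 ± 0.17 (SE), with an adjusted p of 0.978 by limma, the value that most members share. It was -0.12 without cKO 1 and -0.41 without control 1.

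Dhodh, the step that hands electrons to ubiquinone, had 186, 322 and 294 normalised counts in cKO libraries 1, 2 and 3, against 201, 329 and 313 in controls 1, 2 and 3. Both libraries numbered 1 were low, the other 4 were close together, and the groups overlapped almost fully. Its means were 267 ± 71.8 in cKO and 281 ± 70.0 in control libraries (SD, n = 3 each). Dhodh had a log2 fold change of -0.08 with a 95% interval of -0.68 to 0.52 by limma (adjusted p = 0.988), and an exact 2-sided permutation test gave p = 0.6. Its interval holds both a loss and a gain of transcript, so a p of this size does not show equal levels. The log2 fold change of Dhodh was 0.16 without cKO 1, -0.30 without control 1, 0.05 without control 2 and 0.01 without control 3.

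Umps, the enzyme that joins orotate to PRPP and decarboxylates the product to UMP, had the most negative log2 fold change among the members. It had 637, 1018 and 915 normalised counts in cKO libraries 1, 2 and 3, against 935, 1187 and 1129 in controls 1, 2 and 3. All cKO libraries lay under control 2 and control 3, and only control 1 fell among them. The mean of Umps was 856 ± 197 in cKO and 1083 ± 132 in control libraries (SD, n = 3 each), or 79.1% of control. The log2 fold change was -0.36 with a 95% interval of -0.77 to 0.06 by limma. Without cKO 1 it was -0.16, and Guk1 at -0.33, Rrm2b at -0.27 and Tk2 at -0.23 were then more negative. Without control 1 the log2 fold change of Umps was -0.46.

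The pathway ends with CTP synthase, which has an autosomal and an X-linked gene. Ctps had 935, 1185 and 1114 normalised counts in cKO libraries against 1149, 1230 and 1206 in controls, with a log2 fold change of -0.16 ± 0.10. Ctps2, the X-linked gene, had 1504, 1362 and 1409 in cKO against 1361, 1450 and 1352 in controls, a log2 fold change of 0.04 ± 0.07. The groups of both genes overlapped, and cKO 1 held the lowest Ctps value and the highest Ctps2 value of the 6 libraries. Per kb of exon, Ctps stood at 0.885, 1.24 and 1.13 times Ctps2 in cKO libraries, against 1.20, 1.21 and 1.27 times in controls.

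Thymidylate is made from dUMP by Tyms, with a folate as the donor of the methyl group. Tyms had 633, 1127 and 938 normalised counts in cKO libraries, against 825, 1119 and 1190 in controls. cKO 2 was level with control 2, whereas the other cKO libraries were under the controls of their number. The log2 fold change of Tyms was -0.24 ± 0.22, or -0.0051 without cKO 1 and -0.40 without control 1. Dctd, the deaminase that turns dCMP into dUMP, was scarcer, at 93.4, 160 and 142 normalised counts in cKO against 127, 165 and 183 in controls. Its log2 fold change was -0.28 ± 0.23, or -0.05 without cKO 1 and -0.43 without control 1.

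Dut, the dUTPase that keeps uracil out of DNA and supplies dUMP, was a member without overlap. It had 2382, 2515 and 2471 normalised counts in cKO libraries, against 2802, 2762 and 2681 in controls. Every cKO library was under every control, and both groups were tight, with means of 2456 ± 67.8 in cKO and 2748 ± 61.8 in controls (SD, n = 3 each). Dut had a log2 fold change of -0.16 with a 95% interval of -0.31 to -0.01 by limma, an unadjusted p of 0.0382 and an adjusted p of 0.978.

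PRPP, the sugar phosphate on which both pathways draw, is made by Prps1 and Prps2, both X-linked. Prps1 had 1299, 1745 and 1688 normalised counts in cKO libraries, against 1659, 1961 and 1828 in controls. Its log2 fold change was -0.21 ± 0.13, or -0.08 without cKO 1 and -0.28 without control 1. Prps2 had 2440, 3480 and 2959 in cKO, against 2952, 3260 and 3055 in controls, a log2 fold change of -0.08 ± 0.13. cKO 2 held the highest Prps2 value of all 6 libraries, so its groups overlapped from end to end. Per kb of exon the ratio of Prps2 to Prps1 was 0.967, 1.03 and 0.902 in cKO libraries against 0.916, 0.855 and 0.860 in controls.

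The enzymes that build the purine ring up to IMP pointed the same way in every same-numbered pair. All 6 had negative log2 fold changes, with a median of -0.25, and in all 6 each cKO library was lower than the control of its number, yet the groups overlapped in each of the 6 and none passed the test. Without cKO 1 the median was -0.06, with values from -0.14 for Adsl to 0.02 for Atic. Without control 1 the values ran from -0.48 for Pfas to -0.11 for Paics. Ppat, the amidotransferase of the committed step, had 1325, 1897 and 1750 normalised counts in cKO libraries against 1662, 2022 and 2013 in controls, a log2 fold change of -0.21 ± 0.15. Gart, which carries 3 of the activities in a single protein, had 1092, 1660 and 1487 in cKO against 1461, 1840 and 1770 in controls, a log2 fold change of -0.27 ± 0.16. In both genes cKO 1 was the lowest library and control 2 the highest.

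Pfas, the FGAM synthase that brings in nitrogen from glutamine, had 1277, 2205 and 1862 normalised counts in cKO libraries against 1657, 2550 and 2294 in controls. Its spread within each group was wide, with means of 1781 ± 470 in cKO and 2167 ± 460 in controls (SD, n = 3 each), and the log2 fold change was -0.30 ± 0.22. Adsl, adenylosuccinate lyase, which acts both on the way to IMP and on the way to AMP, had 1236, 1712 and 1590 in cKO against 1631, 1983 and 1869 in controls. Only control 1 lay among the cKO values of Adsl, and its log2 fold change was -0.28 with a 95% interval of -0.59 to 0.03 by limma. Paics, the bifunctional carboxylase and synthetase, was the most abundant of the 6 and the least different, with 4471, 5321 and 5009 in cKO against 5310, 5378 and 5211 in controls and a log2 fold change of -0.11 ± 0.08. Atic, which closes the ring, had 1931, 3411 and 2894 in cKO against 2568, 3542 and 3301 in controls. Its log2 fold change was -0.22 ± 0.21, or 0.02 without cKO 1 and -0.36 without control 1.

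The promoters of the members are described next, and a link between their motifs and the log2 fold changes was not tested. RefSeq windows of 300 bases (250 before and 50 after an annotated start, build GRCm38.p6) were found for 31 of the 34 members, and none was found for Dhodh, Pfas and Rrm2b. The windows shown are those of Ppat and Paics, neighbouring genes of the purine ring on opposite strands whose annotated 5′ ends overlap by 272 bases in GENCODE M21, that of Atic, and that of Umps, the gene with the most negative log2 fold change. Capitals mark the E-box CACGTG (the palindrome that MYC and related factors bind), the E2F-type motifs TTGGCGC and TTCCCGC, and the CCAAT box, searched on both strands. TTGGCGC was in none of these 4 windows, and no match overlapped another.
Ppat: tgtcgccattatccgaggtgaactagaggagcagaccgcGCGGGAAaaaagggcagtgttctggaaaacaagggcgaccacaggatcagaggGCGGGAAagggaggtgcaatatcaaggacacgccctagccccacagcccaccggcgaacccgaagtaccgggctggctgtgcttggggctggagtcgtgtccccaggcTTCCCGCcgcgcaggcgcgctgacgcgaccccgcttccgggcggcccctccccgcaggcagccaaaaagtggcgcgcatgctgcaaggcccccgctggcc
Paics: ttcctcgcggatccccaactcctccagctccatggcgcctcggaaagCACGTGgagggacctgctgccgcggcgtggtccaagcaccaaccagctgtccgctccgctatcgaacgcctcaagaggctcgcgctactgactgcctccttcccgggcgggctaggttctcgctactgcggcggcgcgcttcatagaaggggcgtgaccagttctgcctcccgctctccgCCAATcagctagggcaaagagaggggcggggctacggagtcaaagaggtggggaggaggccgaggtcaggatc
Atic: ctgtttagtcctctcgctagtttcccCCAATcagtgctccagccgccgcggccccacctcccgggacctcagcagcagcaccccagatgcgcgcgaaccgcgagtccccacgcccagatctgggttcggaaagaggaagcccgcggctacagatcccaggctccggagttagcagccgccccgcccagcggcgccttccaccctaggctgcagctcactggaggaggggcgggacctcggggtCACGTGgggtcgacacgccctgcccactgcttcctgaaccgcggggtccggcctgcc
Umps: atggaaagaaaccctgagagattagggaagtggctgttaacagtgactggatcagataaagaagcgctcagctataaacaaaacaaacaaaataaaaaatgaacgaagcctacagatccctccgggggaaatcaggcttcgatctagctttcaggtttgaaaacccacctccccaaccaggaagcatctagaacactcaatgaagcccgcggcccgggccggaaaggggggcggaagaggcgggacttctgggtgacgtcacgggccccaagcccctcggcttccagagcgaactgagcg

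The Ppat window (chr5:76951529-76951828, minus strand) held TTCCCGC beginning 50 bases before the start, and its reverse complement at 2 places upstream, 211 and 158 bases before it. The Paics window (chr5:76951052-76951351, plus strand) held CACGTG 203 bases and CCAAT 23 bases before the start. In the Atic window (chr1:71556906-71557205, plus strand) CACGTG began 7 bases and CCAAT 224 bases before the start, and the Umps window (chr16:33966989-33967288, minus strand) held none of the 4 motifs. Over the 31 members with a window, CACGTG was found in 6 (19.4%: Atic, Dtymk, Impdh2, Nme1, Paics and Tyms), against 8.09% of the 27025 genes of the table. TTCCCGC was in 4 (12.9%: Ppat, Prps1, Prps2 and Rrm1), against 5.29%, TTGGCGC in 3 (9.68%: Adss, Dtymk and Impdh2), against 2.85%, and CCAAT in 12 (38.7%), against 41.1%. None of the 4 was found in 14 of the 31. The 27025 genes include genes that were not tested here. A match describes letters in a window and is neither a site nor a cause.

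IMP is turned into AMP by way of Adss and Adsl, and into GMP by way of Impdh1 or Impdh2 and then Gmps. Adss, adenylosuccinate synthase, had 2638, 2928 and 2600 normalised counts in cKO libraries against 2818, 3175 and 2947 in controls, a log2 fold change of -0.13 ± 0.08. Gmps, GMP synthase, had 2411, 2707 and 2502 in cKO against 2685, 2824 and 2802 in controls, a log2 fold change of -0.13 ± 0.07. In both genes each cKO library was lower than the control of its number, and the groups overlapped. Impdh2, the inducible IMP dehydrogenase of dividing lymphocytes, differed least among the members, with 5205, 5945 and 5998 in cKO against 5322, 5823 and 6278 in controls and a log2 fold change of -0.02 ± 0.09. Impdh1 had 1365, 1549 and 1439 in cKO against 1635, 1522 and 1461 in controls, a log2 fold change of -0.09 ± 0.08. Per kb, Impdh2 stood at 4.08, 4.11 and 4.46 times Impdh1 in cKO libraries and 3.49, 4.10 and 4.60 times in controls, with no separation of the groups.

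Among the nucleotide kinases, which add the further phosphates, Guk1 was a member without overlap and had the lowest unadjusted p of all the members. Guk1, guanylate kinase, had 340, 335 and 293 normalised counts in cKO libraries against 385, 408 and 389 in controls. Every cKO library was under every control, and the means were 323 ± 26.2 in cKO and 394 ± 12.0 in controls (SD, n = 3 each), or 81.9% of control. Guk1 had a log2 fold change of -0.29 with a 95% interval of -0.53 to -0.05 by limma, an unadjusted p of 0.0225 and an adjusted p of 0.978.

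The other kinases differed less. Dtymk, thymidylate kinase, had 735, 780 and 718 normalised counts in cKO libraries against 800, 863 and 762 in controls (log2 fold change -0.12 ± 0.08). Cmpk1, the UMP and CMP kinase, had 1128, 1100 and 1031 in cKO against 1263, 1021 and 1116 in controls (-0.06 ± 0.10). Nme1, a nucleoside diphosphate kinase, had 480, 697 and 644 in cKO against 545, 675 and 760 in controls (-0.13 ± 0.17). In Dtymk each cKO library was lower than the control of its number, whereas in Cmpk1 and Nme1 the second pair ran the other way. Nme2, the neighbouring and closely similar kinase gene, was listed at only 6.03, 8.13 and 11.8 in cKO and 3.70, 1.96 and 7.70 in controls and was not tested. A readthrough gene, Gm20390, overlaps Nme1 and Nme2 on the same strand in GENCODE M21 and is not among the symbols of the table, so the levels of both are uncertain.

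Ribonucleotide reductase joins the large subunit Rrm1 with the S-phase subunit Rrm2 or with Rrm2b, the p53-inducible subunit that also serves resting cells. Rrm1 had 7452, 9940 and 9197 normalised counts in cKO libraries against 8413, 10834 and 10277 in controls, a log2 fold change of -0.15 ± 0.14. Rrm2 had 6495, 8537 and 7771 in cKO against 7748, 8168 and 7932 in controls, a log2 fold change of -0.07 ± 0.11. Rrm2b had 503, 352 and 352 in cKO against 575, 351 and 376 in controls, a log2 fold change of -0.09 ± 0.22. Rrm1 and Rrm2 were lowest in cKO 1, while Rrm2b was highest in both libraries numbered 1. Per kb, Rrm2 stood at 42.5, 79.8 and 72.8 times Rrm2b in cKO libraries, against 44.4, 76.7 and 69.5 times in controls, lowest in library 1 of each group.

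The salvage enzymes included 1 of the 2 members with a positive log2 fold change, and their groups all overlapped. Tk1, the cytosolic thymidine kinase of S phase, had 1102, 1417 and 1296 normalised counts in cKO libraries against 1385, 1390 and 1489 in controls, a log2 fold change of -0.17 ± 0.10. Tk2, its mitochondrial counterpart, had 891, 481 and 497 in cKO against 721, 502 and 517 in controls, a log2 fold change of 0.06 ± 0.25. Library 1 was the highest in each group, and the log2 fold change of Tk2 was -0.23 without cKO 1, -0.03 without control 2 and -0.01 without control 3. Its highest value with a library left out was 0.23. Per kb, Tk1 stood at 0.850, 2.02 and 1.79 times Tk2 in cKO libraries, against 1.32, 1.90 and 1.98 times in controls.

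Hprt, which salvages hypoxanthine and guanine, had 2276, 3057 and 2721 normalised counts in cKO libraries against 2719, 3102 and 2903 in controls (log2 fold change -0.12 ± 0.11). Aprt, which salvages adenine, had 1402, 1224 and 1271 in cKO against 1381, 1403 and 1389 in controls (-0.10 ± 0.08). Dck, deoxycytidine kinase, had 2100, 2495 and 2355 in cKO against 2283, 2616 and 2384 in controls (-0.07 ± 0.09). Uck2, uridine-cytidine kinase, had 2659, 3195 and 3096 in cKO against 2890, 3475 and 3335 in controls (-0.12 ± 0.10). The groups overlapped in all 4 genes, and in Aprt cKO 1 was above 2 of the 3 controls. The 4 X-linked members, Hprt, Prps1, Prps2 and Ctps2, had log2 fold changes of -0.12, -0.21, -0.08 and 0.04, inside the range of the autosomal members.

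**Figure D2:**
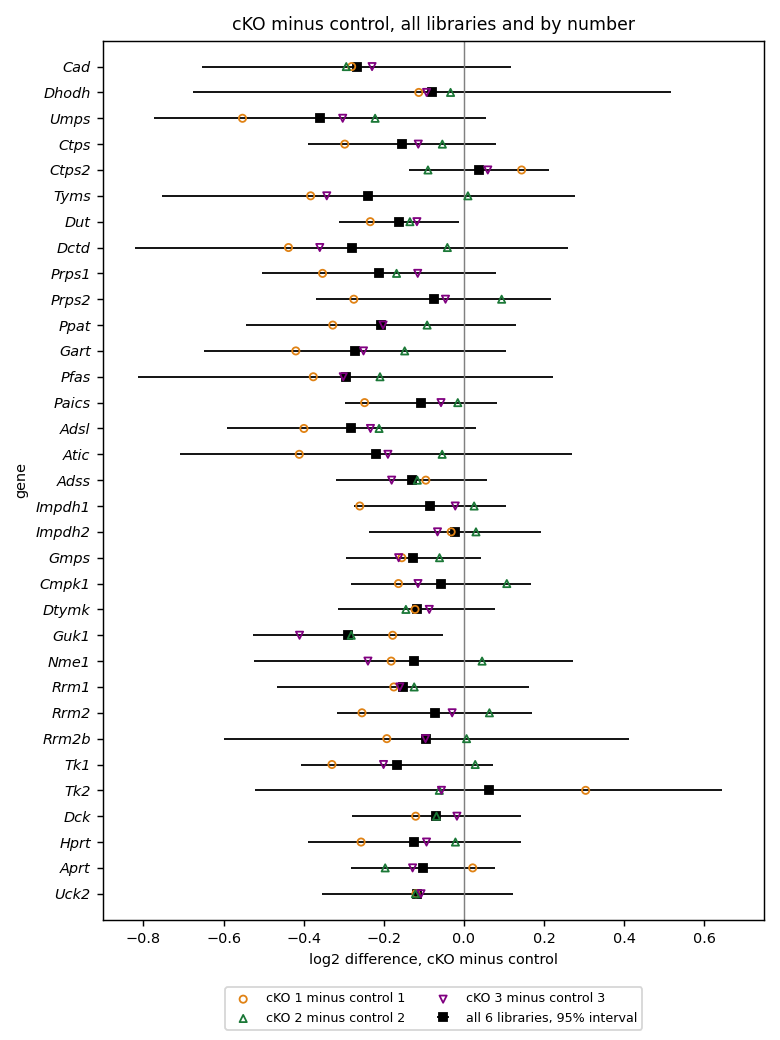
Log2 fold change of cKO over control (x axis) for each of the 33 tested members (y axis): black squares with bars are the estimates from all 6 libraries with 95% intervals by limma, and open symbols are the differences between same-numbered libraries. Only the intervals of Dut and Guk1 lie wholly below 0, and only Ctps2 and Tk2 have estimates above 0.

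Levels per kb of merged exon differ over a wide range among the members. Averaged over the 6 libraries, Rrm2 was the highest at 2806 normalised counts per kb, followed by Hprt at 2169, Impdh2 at 1873, Paics at 1630 and Dut at 1080. The lowest were Dctd at 42.5, Dhodh at 43.3 and Rrm2b at 45.8, all about the 30th percentile of the 11959 tested genes with an exon length (30.3, 30.7 and 31.6). Dhodh was thus the scarcest transcript of the pyrimidine pathway, whose other members stood between 278 per kb for Umps and 425 per kb for Cad. Merged exons include every annotated isoform, which lowers the value of genes with long rare exons.

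**Figure D3:**
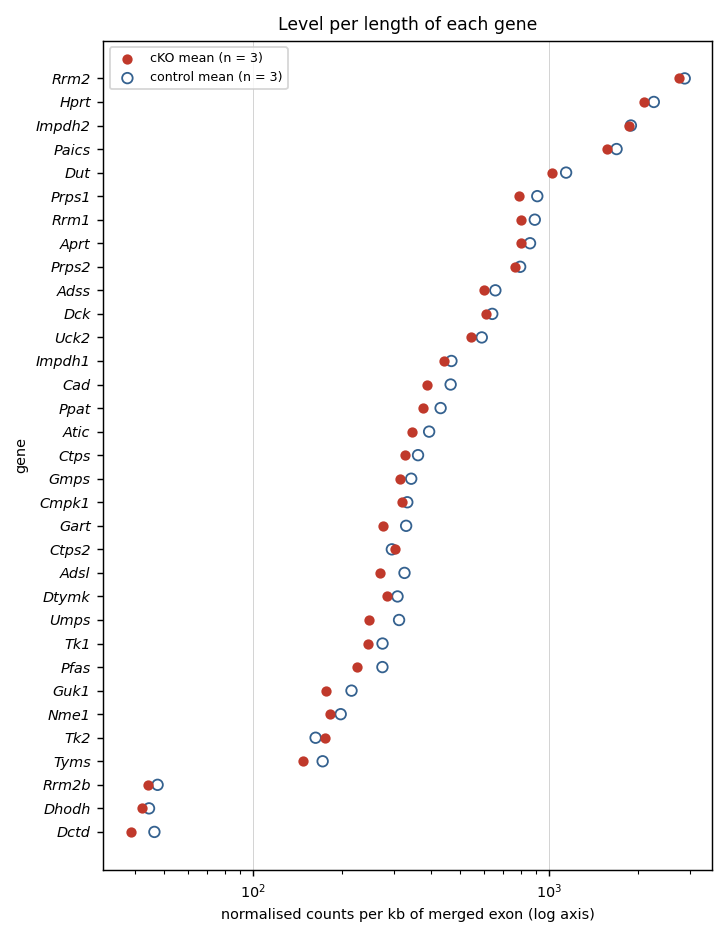
Mean level of each tested member in normalised counts per kb of merged exon (log axis), with filled symbols for cKO and open symbols for control libraries (n = 3 each). The symbols of a gene lie close together beside the range between genes, which runs from 42.5 for Dctd to 2806 for Rrm2 over all 6 libraries.

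Much of the spread of the members lay between library 1 and the others. cKO 1 was the lowest of the 6 libraries for 25 of 33 members (75.8%), against 32.0% of all tested genes, and control 2 was the highest for 20 (60.6%), against 18.8%. The median deviation of the members from their own means was -0.28, 0.06 and -0.03 in cKO libraries 1, 2 and 3, against -0.03, 0.15 and 0.11 in controls 1, 2 and 3, on the log2 scale. In 22 members (66.7%) library 1 was the lowest of its group in both groups, where this held for 26.8% of all tested genes. In 3 members (9.09%: Tk2, Rrm2b and Cmpk1) library 1 was the highest in both, where 25.3% of all genes were.

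Against the mean of libraries 2 and 3 of its group, library 1 differed by a median of -0.30 over the members in cKO and -0.13 in control libraries. Dhodh lay at -0.72 in cKO and -0.67 in controls, Tk2 at 0.86 in cKO and 0.50 in controls, and Rrm2b at 0.51 in cKO and 0.66 in controls. The within-group SD of a member had a median of 0.166 on the log2 scale, against 0.170 over all tested genes.

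**Figure D4:**
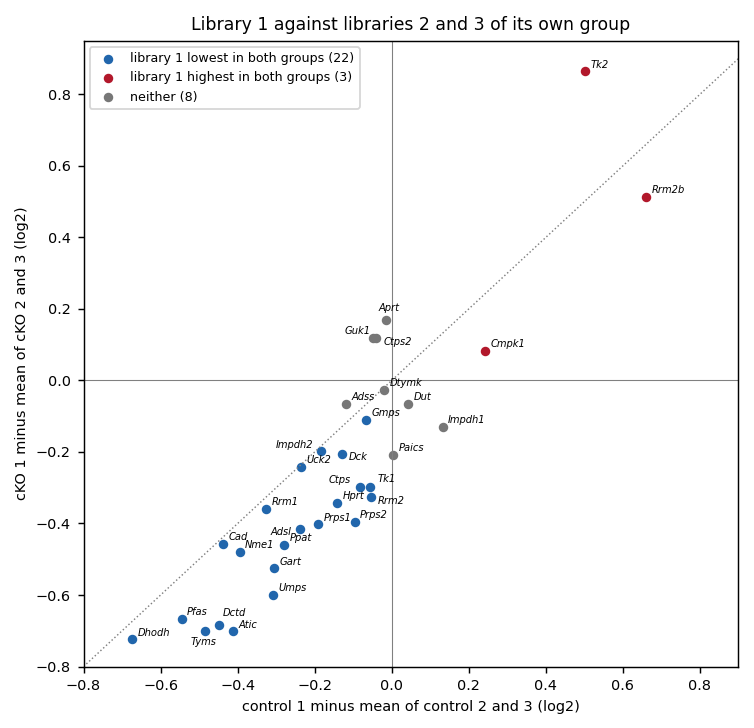
Difference of library 1 from the mean of libraries 2 and 3 of the same group, on the log2 scale, in cKO (y axis) and control (x axis) libraries, 1 point per member; the dotted line marks equal differences. Blue points (22 members) are lowest in library 1 of both groups, and Tk2, Rrm2b and Cmpk1 at upper right are highest in it.

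With the share of Y-linked reads added to the limma model as a covariate, 10 of the 33 members fell in cKO libraries at an adjusted p of 0.05 (30.3%) and 0 rose, where 4.86% of all tested genes fell and 1.65% rose. The 10 were Cad and Umps of the pyrimidine pathway, Tyms, Prps1, 5 of the 6 purine ring enzymes (Ppat, Gart, Pfas, Adsl and Atic) and Rrm1. In this fit Umps fell by 0.55 on the log2 scale (adjusted p = 0.0105), Pfas fell by 0.54 (0.0148), Atic fell by 0.46 (0.0168), Cad fell by 0.45 (0.0145) and Adsl fell by 0.42 (0.0113). edgeR with the same covariate called 8 of the 33 (24.2%), where 3.35% of all genes were called lower, and Tyms (adjusted p = 0.0527) and Rrm1 (0.0612) were the 2 it did not call. Dhodh had a log2 fold change of -0.35 in the limma fit (adjusted p = 0.126), Paics -0.16 (0.135), Dut -0.18 (0.0948) and Guk1 -0.27 (0.127), all short of the threshold.

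The calls with the covariate depend on how it is spread over the libraries. It was near 0 in both libraries numbered 1 and, among the other 4, higher in cKO 2 and 3 (193 and 189 RPM) than in controls 2 and 3 (131 and 55.1), so part of the genotype difference cannot be told apart from it. Without the libraries numbered 1 and without the covariate, 0 members were called, 30 of 33 (90.9%) had negative log2 fold changes, against 52.8% of all genes tested there, and the median over the members was -0.11. At an unadjusted p under 0.05 in those 4 libraries, 7 members were lower in cKO, where 4.57% of genes were. Umps had a log2 fold change of -0.26 there, Cad -0.26, Pfas -0.26, Adsl -0.22, Guk1 -0.35 and Dhodh -0.06. Of the rest called with the covariate in limma, Gart had -0.20, Tyms -0.17, Ppat -0.15, Prps1 -0.14, Rrm1 -0.14 and Atic -0.12. Each of the 10 lay nearer 0 there than with the covariate. Leaving out cKO 1 alone brought the median over the members to -0.06, with 26 of 33 negative (78.8%), against 53.1% of all genes tested there. Leaving out control 1 alone brought that median to -0.18, with 29 of 33 negative (87.9%), against 52.3% of genes.

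**Figure D5:**
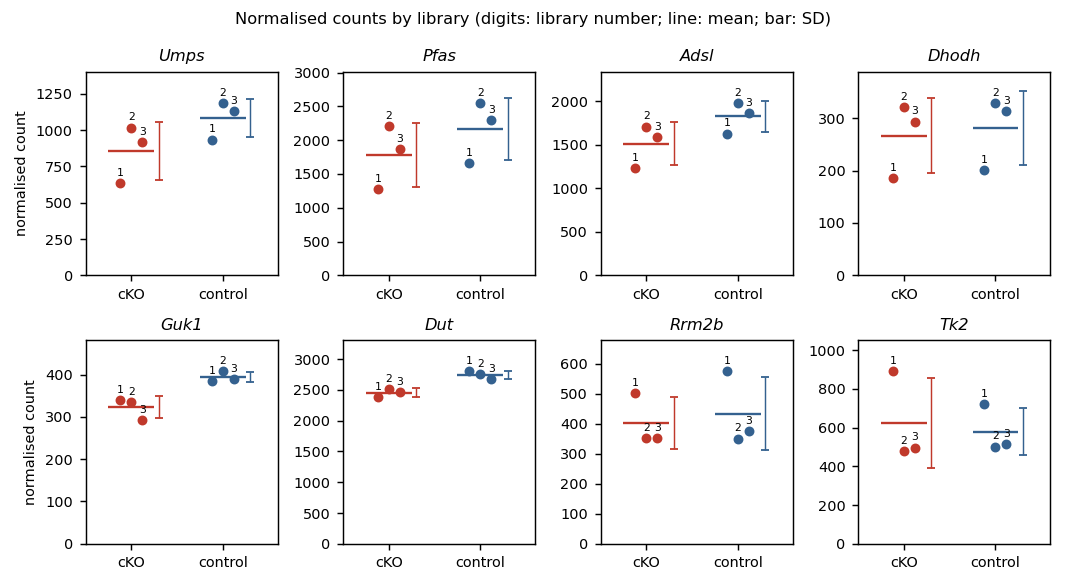
Normalised counts of 8 members in each cKO (left) and control (right) library; digits are library numbers, lines are means and bars SD (n = 3 each), and the y axes start at 0. Umps, Pfas, Adsl and Dhodh are lowest in library 1 of each group, Rrm2b and Tk2 are highest in it, and Guk1 and Dut alone show no overlap between cKO and control libraries.

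Genes that supply or use the same pathways were read from the same fit, and 0 of them passed the test on genotype alone. Folate and serine metabolism gives the carbon units for purines and thymidylate. Of 19 genes listed under it, 17 had negative log2 fold changes (54.1% of all tested genes did), with a median of -0.18. Folr4 (-0.06) is counted among the 17, and its part in carbon supply was not tested. With the Y-linked covariate in limma, 8 of the 19 fell (4.86% of all tested genes did). Slc25a32, the mitochondrial folate carrier, had 290, 346 and 312 normalised counts in cKO libraries against 381, 395 and 367 in controls. Its groups did not overlap, and its log2 fold change was -0.27. Of 30 tested genes for other salvage, kinase and breakdown enzymes, 17 were negative and 13 positive (median -0.07), and 2 fell with the covariate in limma, Ak4 (log2 fold change -1.96, adjusted p = 0.00555) and Adk (-0.40, 0.0420). Ak4 and Adk, a mitochondrial adenylate kinase and adenosine kinase, were named after their values were seen, and on genotype alone they had log2 fold changes of -0.68 and -0.27 with overlapping groups. Ak4 had 39.2, 710 and 468 normalised counts in cKO libraries 1, 2 and 3 against 147, 780 and 477 in controls 1, 2 and 3, lowest in library 1 of each group. In the same list Upp1, uridine phosphorylase, had 9.04, 9.04 and 10.8 normalised counts in cKO against 15.7, 16.7 and 20.9 in controls (log2 fold change -0.82), Itpa, which clears ITP, had 522, 518 and 467 in cKO against 601, 619 and 593 in controls (-0.27), and Ak3, an adenylate kinase of the mitochondrial matrix, had -0.14, all without overlap and none past the adjusted threshold in limma with or without the covariate.

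Nucleoside transporters were mixed, with 4 of 7 negative (54.1% of all tested genes were) and a median of -0.03. The most abundant were Slc29a1 and Slc28a2, with log2 fold changes of -0.06 and 0.05. Of 9 genes for dehydrogenases that reduce ubiquinone, complex II among them, 7 were negative (median -0.08), and Sdhd, a membrane anchor of complex II, had 1308, 1525 and 1530 normalised counts in cKO against 1587, 1744 and 1664 in controls without overlap (log2 fold change -0.20). Of 13 genes for ubiquinone synthesis 11 were negative (median -0.11). Coq2 (-0.23) and Pdss2 (-0.11) had no overlap, where 5.64% of all tested genes had all cKO values under all controls. On genotype alone no gene of these lists passed the adjusted threshold in limma. With the Y-linked covariate Sdhd fell (log2 fold change -0.27, adjusted p = 0.0316), where 4.86% of all tested genes fell, while Coq2 (0.0640) and Pdss2 (0.614) did not pass.

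Markers of proliferation and growth pointed the same way as the members, and their part in the result was not tested. All 9 had negative log2 fold changes, from -0.28 to -0.03 (median -0.22), where 54.1% of all tested genes did. With the Y-linked covariate in limma 4 fell, where 4.86% of all tested genes did. Myc had 2558, 3222 and 2818 normalised counts in cKO libraries against 3070, 3942 and 3411 in controls (log2 fold change -0.28 ± 0.12), and Pcna, the DNA polymerase clamp, had 5672, 7202 and 6332 in cKO against 6840, 7793 and 7813 in controls (-0.23 ± 0.11). Mki67, the nuclear antigen of cycling cells, had a log2 fold change of -0.03 ± 0.10, and its groups overlapped. Of the Th1 genes, Ifng had 858, 880 and 865 in cKO against 1342, 1461 and 1342 in controls (log2 fold change -0.67, adjusted p = 0.265 by limma) and Tbx21, the Th1 transcription factor, had -0.30 (0.978), both without overlap. Ifng passed the threshold with the replicate block (adjusted p = 0.0255, limma), by DESeq2 (1.19e-07) and with the Y-linked covariate in limma (0.00344), but not by edgeR without it (0.219). Tbx21 passed with the covariate in limma (0.0170) and not with the replicate block (0.244).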

How the data were processed

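Illumina TruSeq libraries were made from RNA of sorted mouse Th1 cells, per the labels' protocols. The tools STAR, HTSeq and DESeq2 and the build mm10 come from the submitters' processing notes, and the sources used here do not give versions, settings or strand. For each gene the deposited signal is a read count scaled by a size factor per library, as the values show: dividing by the worth of 1 read gave whole numbers (to within 0.01) for 100% of values in every library. With no strand setting given, reads of genes that overlap on opposite strands (Ppat and Paics, Impdh2 and Ndufaf3, Tk1 and Afmid) cannot be told apart where they overlap. Positions and exon lengths came from GENCODE M21 (GRCm38, equal to mm10), and promoters from RefSeq (GRCm38.p6). The symbols include 22 in the form of a date, left as they stood.

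Normalized values call for a test on the log scale, so log2(value + 1) of genes over 10 in at least 3 libraries was fitted by limma-trend (limma 3.58.1 in R 4.3.3) on genotype alone, with Benjamini-Hochberg adjustment. Changes of low genes are understated on that scale. SE is moderated. On the recovered reads, edgeR 4.0.16 (quasi-likelihood, TMM) called 0 genes and DESeq2 1.42.0 called 2. Further alternatives were TMM and library totals, limma-voom, pseudocounts of 0.1 and 5, filters of 50 or none, the share of reads on Ddx3y, Kdm5d, Uty and Eif2s3y as covariate, a replicate block and each library left out; edgeR with the covariate and the libraries numbered 2 and 3 alone were chosen after seeing the data. The main fits were tested on simulated counts without a library 1 or Y-linked effect, so that test does not bear on the calls with the covariate. The members and lists were chosen with earlier results of these data known. Named were all members, Sdhc, Myc, Mki67, Pcna and, of each other list, called genes and up to 3 genes without overlap, or else the 2 most abundant; 1 gene under this rule is not reported here.

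The groups share replicate numbers in their titles; the labels do not say what a number stands for. Deviations from the group means correlated across genes at 0.579, 0.458 and 0.188 between libraries numbered 1, 2 and 3. A block on the number was fitted as an alternative only, and these values do not establish pairs. The value for cKO 3 was higher with control 2 (0.272) than with control 3. Over the members, cKO 2 correlated at 0.779 with control 2 and 0.770 with control 3. The values for cKO 3 were 0.773 with control 2 and 0.814 with control 3. With both libraries numbered 1 apart from the rest, these values do not settle whether numbers 2 and 3 are pairs. With the replicate block 0 members were called.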

Additional observations from a re-analysis of the deposited data

How the results depend on the processing

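Of 627 values of the 33 tested members under other settings, 584 kept their sign without being called, 18 were called (all with the Y-linked covariate) and 25 had the other sign, 16 of those when a library was left out. The members called were 10 with the Y-linked covariate in limma and 8 in edgeR, and 0 under every other setting run. The genes called among all tested were 2 by DESeq2, 1 with the replicate block, 826 with the covariate in limma, 670 with it in edgeR, 1 for the libraries numbered 2 and 3 alone, and 0 to 1 with a library left out. The replicate block called Ifng and changed no other call of a gene named in the text; with it 13 members (39.4%), all lower in cKO, were under an unadjusted p of 0.05, where 8.01% of genes were. Members without overlap numbered 2 with all libraries and 2 to 15 with a library left out. Among these were, all lower in cKO, 4 without cKO 1 (12.1%), 11 without cKO 2 (33.3%) and 15 without control 1 (45.5%). Of all tested genes, 11.9%, 12.3% and 14.7% were lower in cKO without overlap in the same settings. Without cKO 3, control 2 and control 3, 2 (6.06%), 2 (6.06%) and 3 (9.09%) members were lower in cKO without overlap. Those shares were below the 8.37%, 8.43% and 9.73% of all tested genes. Without control 2, 1 member was higher in cKO without overlap, where 7.13% of all tested genes were. With a library left out, the log2 fold change ranged from -0.30 to 0.16 for Dhodh, -0.0018 to 0.0699 for Ctps2, -0.20 to 0.0561 for Prps2, -0.42 to -0.0051 for Tyms, -0.39 to 0.0155 for Atic, -0.0840 to 0.0434 for Impdh2, -0.13 to 0.0237 for Cmpk1, -0.26 to 0.0345 for Nme1, -0.16 to 0.0354 for Rrm2, -0.27 to 0.13 for Rrm2b, -0.23 to 0.23 for Tk2, -0.12 to 4.5e-05 for Dck and -0.0798 to 0.0536 for Mki67. For the libraries numbered 2 and 3 alone it was -0.0152 for Ctps2, 0.0240 for Prps2, 0.0018 for Impdh1, 0.0171 for Rrm2, -0.0588 for Tk2, -0.05 for Slc28a2 and 0.0766 for Mki67. With the covariate it was 0.0031 for Cmpk1 and 0.13 for Rrm2b in limma, and 0.0254, 0.13 and 0.0094 for Cmpk1, Rrm2b and Mki67 in edgeR. The cause of these changes was not tested. With 3 libraries a group, most members' 95% intervals hold both signs, and Nme2 was too low for the test.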
